A study of Mus musculus with 2 samples.

Results

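Isl1, Nkx2-3, Satb1, Sp6 and Bcl11b are 5 transcription factors with described roles in dental epithelium, and their transcripts were compared here between tooth and skin. They were taken as every non-control spot that carried 1 of these 5 gene names, which gave 6 probes and 15 spots on each array, of 55675 probes and 59305 spots, and 5 of 24323 named genes. Total RNA of wild-type mice at postnatal day 0 was measured on 1 tooth array and 1 skin array, each labelled with a single dye (Cy3). The study, which concerns the factor Sox21 in enamel formation and ectopic hair on teeth, used the pair to set tooth against skin. The labels give day 0 for both tissues, whereas its methods name a stage 1 day later, and neither says how many animals gave RNA. The study describes its tooth samples as incisor germs with epithelium and mesenchyme together, and its skin as containing hair follicles. With 1 array per tissue no test could be run, and the differences below have neither a p-value nor a replicate check.

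Transcription factors of the dental epithelium act in sequence as the tooth bud forms, the crown takes its shape and the inner epithelium becomes ameloblasts, the cells that secrete enamel. Isl1 is a LIM-homeodomain protein that in the mouse marks incisor epithelium and is also present in sensory and motor neurons and in Merkel cells. Nkx2-3 is an NK2 homeodomain protein found in tooth epithelium and in gut and spleen endothelium. Satb1 folds chromatin by binding matrix attachment regions and was first studied in thymocytes. Sp6, also called epiprofin, is a zinc-finger protein of the Sp family whose loss in mice disturbs ameloblast differentiation and tooth number. Bcl11b, also called Ctip2, is a zinc-finger repressor that is required in developing T cells, in ameloblasts and in the epidermis.

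The measurement of each gene rests on probes of 60 bases, and 3 are shown because their sequence bears on how the value can be read. The first 30 bases of the only Sp6 probe hold a run of TG dinucleotides, in capitals. The first Bcl11b probe is given whole, with capitals at the codons of the cysteines and the first histidine that have the spacing of a C2H2 zinc finger, found by translating its open frame. The second Bcl11b probe, again its first 30 bases, has no such pattern.
Sp6 probe: TGTGTGtaTGcgTGTGtTGtcTGcaccTGt
Bcl11b probe 1: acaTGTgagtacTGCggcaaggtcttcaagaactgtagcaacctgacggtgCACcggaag
Bcl11b probe 2: tttattaccttttctattacgtatcgtatg
None of the 6 sequences was shared with another probe of the array. The Sp6 probe held 16 TG dinucleotides, and 0.101% of all probes held as many. Bcl11b probe 1 detects the transcript NM_021399 from base 2413 and lies on chr12:109153847-109153906 (mm9, minus strand). Bcl11b probe 2 was designed to NM_001079883 from base 7544 and lies on chr12:109148932-109148991, also on the minus strand.

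Of the 5 genes, 4 had at least 2-fold higher values in tooth (Isl1, Sp6, Nkx2-3 and Satb1) and 1 had at least 2-fold higher values in skin (Bcl11b). Among 17409 named genes well above background on at least 1 array, 15.5% were at least 2-fold higher in tooth and 14.2% in skin. In the developmental transcription factor families, which were picked by gene name (Dlx, Fox, Hox, Sox, Tbx and others) and include the 5 genes, 207 of 284 genes passed the same filter. There, 25.6% were at least 2-fold higher in tooth and 32.4% in skin. The 5 genes were picked as known dental regulators with earlier results of these arrays in view, so their count is a description. All 5 passed the filter on dim probes, but Isl1 passed it through the tooth array alone. Their median difference, skin minus tooth, was -2.87 (log2), beside -0.04 over all genes tested and 0.29 over the transcription factor families.

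**Figure D1:**
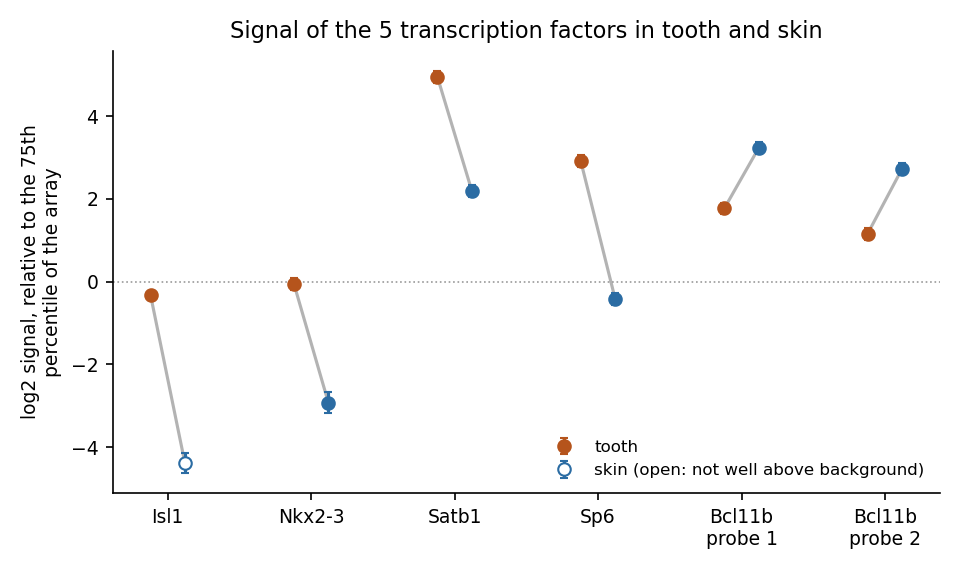
Scaled log2 signal (y axis, 0 is the 75th percentile of each array) of the 6 probes (x axis) on the tooth array (orange) and the skin array (blue), with bars for the error given by the scanner software and an open point where a probe was not well above background. Both Bcl11b probes were higher in skin and the other 4 probes were higher in tooth.

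All signals are given as processed intensities, and all log2 values were taken after the 75th percentile of each array had been subtracted. Before this scaling, spike-in transcripts added to both samples differed by a median of -0.01. Scaling to them in place of the percentile lowers every difference by 0.62 (log2, 1.54-fold) and moves the median gene from -0.04 to -0.67. Errors after ± are those of the scanner software for the spots, carried to the log2 scale, and cover neither dissection nor animals. In bulk tissue, fewer cells of a type and less RNA per cell cannot be told apart.

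Isl1 was well above background in tooth and dim in skin. Its probe (NM_021459 from base 2170, chr13:117088774-117088833, mm9, minus strand) was printed in 10 spots per array, so that the scatter between spots can be seen. On the tooth array 9 spots were used and 1, at 294, was left out as an outlier. The 9 ranged from 317 to 389 with a median of 346, and all 9 were well above background. On the skin array the 10 spots ranged from 4.83 to 25.6 with a median of 15.1, and 1 of 10 was well above background. The spots of the arrays did not overlap, but they are repeats of 1 probe on 1 array per tissue and not replicates of the tissue. Negative-control spots had a 95th percentile of 5.48 and a maximum of 5.67 on the skin array, so most skin spots of Isl1 lay above them and 1 lay within their range.

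On the scaled log2 scale Isl1 was -0.32 in tooth (SD 0.09 over 9 spots) and -4.39 in skin (SD 0.79 over 10 spots), a measured difference of -4.07 ± 0.25. As the skin value was not well above background, the fold is given as a bound, and the tooth value of Isl1 was at least 10.6-fold higher. The bound sets the tooth value against the dimmest signal that the skin array called well above background (-3.73). This is a convention and not a limit on each spot, as a skin spot of Isl1 not called well above background lay at -3.54. With another background correction, normexp with an offset of 50, the measured difference was -1.80 (3.49-fold). A more lenient call of the software, signal significantly above background, was met by 9 of the 10 skin spots. A low Isl1 level in skin can therefore be neither quantified nor set to 0.

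**Figure D2:**
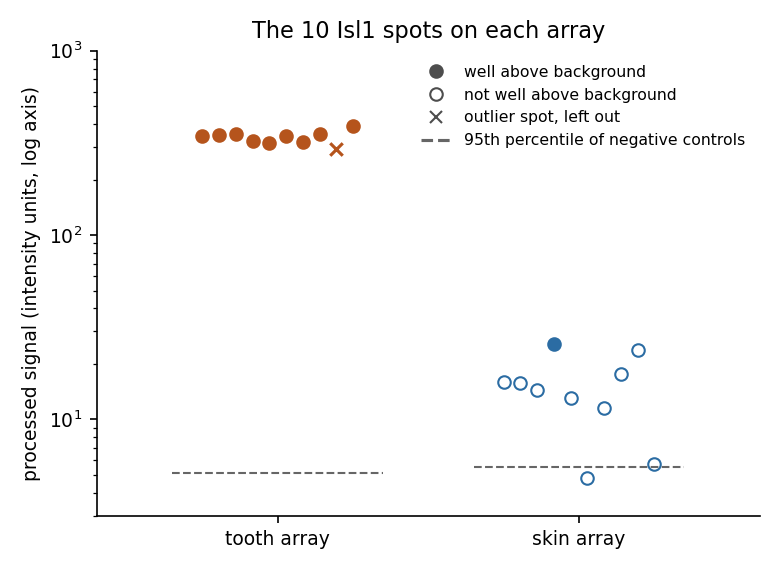
Processed signal (y axis, intensity units on a log axis) of the 10 Isl1 spots of each array, tooth on the left and skin on the right, with the 95th percentile of the negative-control spots as a dashed line. The tooth spots used lay between 317 and 389 and the skin spots between 4.83 and 25.6.

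Nkx2-3, the second homeodomain factor, had a single spot per array. Its probe (NM_008699 from base 1428, chr19:43689699-43689757, mm9, plus strand) gave 412 ± 41.5 in tooth and 36.3 ± 6.47 in skin. The skin spot was well above background and above the maximum of the negative controls. Scaled log2 values were -0.06 and -2.93, a difference of -2.87 ± 0.30. Nkx2-3 was thus 7.32-fold higher in tooth (5.96 to 8.98 over 1 error). Normexp correction brought it to -1.63 (3.09-fold), still at least 2-fold higher in tooth.

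Satb1 was bright on both arrays. Its probe (NM_009122 from base 2533, chr17:51879137-51879196, mm9, minus strand) had a signal of 13233 ± 1323 in tooth and 1264 ± 127 in skin. The scaled values of 4.95 and 2.20 differed by -2.76 ± 0.20, which is 6.75-fold higher in tooth (5.86 to 7.78). Both values were far from background, and normexp correction gave -2.81.

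Sp6 had a signal of 3205 ± 321 in tooth and 205 ± 21.0 in skin at its probe (NM_031183 from base 2574, chr11:96885252-96885311, mm9, plus strand). The scaled values were 2.90 and -0.43, and the difference of -3.33 ± 0.21 corresponds to a 10.1-fold higher value in tooth (8.74 to 11.6). Because the probe carries the TG run shown above, its signal was read beside the other probes of that kind, a comparison chosen after the sequence was seen. All 56 probes with at least 16 TG dinucleotides were well above background on both arrays. Their differences ran from -3.33 to 1.93 with a median of 0.48, with 1 probe, that of Sp6, at least 2-fold higher in tooth and 5 at least 2-fold higher in skin. What part of the Sp6 signal comes from other transcripts with such a run was not tested.

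Bcl11b was the 1 gene of the 5 with the higher value in skin, and its 2 probes ran the same way. At the zinc-finger probe the signal was 1457 ± 146 in tooth and 2594 ± 259 in skin, or 1.77 and 3.23 after scaling. The difference of 1.46 ± 0.20 is 2.76-fold higher in skin (2.40 to 3.18). The second probe, with a sequence of its own, had 957 in tooth and 1833 in skin and gave 1.57 ± 0.20 (2.97-fold). The size depends on the scaling. With spike-in scaling the first probe gave 0.84 (1.79-fold) and the second 0.95, so that both remained higher in skin but fell short of 2-fold.

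Among the genes measured on both arrays, the order of the differences toward tooth was Sp6, Nkx2-3 and Satb1, and the bound of Isl1 was -3.41. The error ranges of Sp6 and Nkx2-3 overlapped, as did those of Nkx2-3 and Satb1, whereas those of Sp6 and Satb1 did not. Among 15271 named genes measured on both arrays, 1.05% had a larger difference toward tooth than Sp6, 1.65% than Nkx2-3 and 1.78% than Satb1. Toward skin, 7.24% had a larger difference than Bcl11b. Among the 157 transcription factors measured on both arrays, Sp6 was the 12th toward tooth, Nkx2-3 the 14th, Satb1 the 15th, and Bcl11b the 32nd toward skin. The order and the ranks are those of the deposited background handling. With normexp correction Nkx2-3 (-1.63) came after Satb1 (-2.81). At least 8-fold differences toward tooth were found for 10.1% of the transcription factor families tested and 2.73% of all named genes tested. Against these shares, Sp6 and, by its bound, Isl1 passed 8-fold, although with normexp correction Isl1 did not (3.49-fold).

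**Figure D3:**
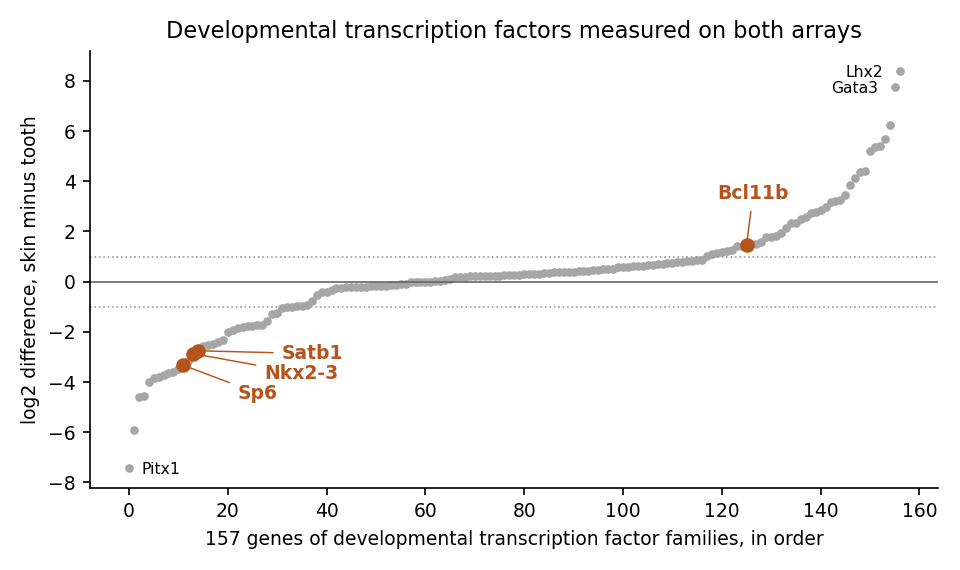
Difference in log2 signal, skin minus tooth (y axis), of the 157 developmental transcription factors measured on both arrays, in order of the difference (x axis), with dotted lines at 2-fold. Sp6, Nkx2-3 and Satb1 (orange) were the 12th, 14th and 15th from the tooth end and Bcl11b the 32nd from the skin end, while Isl1 is absent because skin gave only a bound.

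Nkx2-3 and Satb1 were each nearer to the other (gap 0.12) than to any transcription factor outside the 5. With normexp correction Nkx2-3 was -1.63 and Satb1 -2.81, so this nearness did not hold. By difference alone, over 2 arrays, the nearest outside the 5 to Sp6 were the homeobox genes Dlx1 (-3.46, a gap of 0.13) and Dlx5 (-3.15, a gap of 0.19). Nearest to Nkx2-3 outside the 5 were Dlx5 (gap 0.28) and the TALE homeobox gene Meis3 (gap 0.30). For Satb1 these were Meis3 (-2.57, gap 0.18) and Sox11 (-2.54, gap 0.22). For Bcl11b they were the forkhead gene Foxq1 (1.48, gap 0.02) and the grainyhead gene Grhl2 (1.43, gap 0.03). These values are of the brightest probe of each gene, and other probes did not always run alike. Meis3 had 3 probes, and the others, well above background on both arrays, gave -0.77 and -0.22. Another Dlx1 probe, dim on at least 1 array, gave 0.73. Those of Sox11 and Grhl2 gave -2.90 and 2.07. With 2 arrays, a small gap says that 1 number per gene is alike and nothing more.

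The upstream reference sequences of 3 of the genes are shown because the regions differ in base composition. They are windows of 250 bases before and 50 bases after the annotated start (RefSeq, GRCm38.p6), and capitals mark matches on either strand to TAATCC, the core that Pitx proteins bind, to GGGCGG, the core of the Sp factors, and to CCAAT. The motifs were chosen with these sequences in view.
Isl1 promoter, chr13:116309639-116309938, minus strand: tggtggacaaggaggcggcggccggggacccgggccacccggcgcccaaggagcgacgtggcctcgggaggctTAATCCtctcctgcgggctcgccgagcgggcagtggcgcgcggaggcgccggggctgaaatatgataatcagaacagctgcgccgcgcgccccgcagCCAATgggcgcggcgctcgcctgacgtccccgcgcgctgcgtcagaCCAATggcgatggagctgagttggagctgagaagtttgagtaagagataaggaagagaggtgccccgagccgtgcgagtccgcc
Nkx2-3 promoter, chr19:43612075-43612374, plus strand: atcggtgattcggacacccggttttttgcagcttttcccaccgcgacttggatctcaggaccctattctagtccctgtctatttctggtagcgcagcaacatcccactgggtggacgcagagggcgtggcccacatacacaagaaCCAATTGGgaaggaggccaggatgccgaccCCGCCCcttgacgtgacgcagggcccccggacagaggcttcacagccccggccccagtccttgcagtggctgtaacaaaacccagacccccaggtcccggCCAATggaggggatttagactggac
Bcl11b promoter, chr12:108003365-108003664, minus strand: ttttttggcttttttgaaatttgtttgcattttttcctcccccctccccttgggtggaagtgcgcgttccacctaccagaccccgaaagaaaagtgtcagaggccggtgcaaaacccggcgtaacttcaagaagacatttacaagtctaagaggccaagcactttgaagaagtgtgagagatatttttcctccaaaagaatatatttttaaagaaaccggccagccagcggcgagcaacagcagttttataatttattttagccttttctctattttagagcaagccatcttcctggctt
The Isl1 window had a GC content of 69%, with 1 TAATCC and 2 CCAAT matches. The Nkx2-3 window had 60%, with 1 GGGCGG and 3 CCAAT matches, some of them overlapping on opposite strands. The Bcl11b window had 43% and none of the motifs, beside a median GC content of 52.7% over all windows. Of 32851 windows of 300 bases, 7.06% held TAATCC, 35.7% GGGCGG and 37.4% CCAAT, so these matches are frequent and describe the letters only. Satb1, also higher in tooth, had 5 windows, for as many annotated starts, with GC contents from 49% to 76.7%. A link between base composition and the direction of a difference was not tested. Sp6 had no entry in the table of promoters.

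The tissue of origin was read from marker lists, since neither array is of isolated epithelium. All 7 ameloblast products, among them the enamel matrix genes Amelx (at least 16383-fold) and Ambn (at least 9604-fold) and the enamel protease Klk4 (-5.92), were higher in tooth by at least 2-fold. With normexp correction Amelx was -12.57 and Ambn -11.73, smaller in size than these bounds. All 6 markers of epidermal differentiation were higher in skin by at least 2-fold, with a median of 8.75. Of 8 general epithelial markers, 0 were at least 2-fold higher in tooth and 3 in skin, the desmosomal genes Dsp (1.77) and Perp (1.28) and the keratin Krt14 (1.19). Their median was 0.80 and their summed level, in units of the 75th percentile, 739 in tooth and 1527 in skin (287 and 658 without the keratin Krt5). The other 5 markers were within 2-fold, and the difference of Itgb4, an integrin of hemidesmosomes higher in tooth, was -0.82. Of 6 mesenchyme markers, 3 were at least 2-fold higher in tooth and 0 in skin, namely the collagen genes Col1a1 (-3.17) and Col1a2 (-2.50) and the receptor gene Pdgfra (-2.43). Their summed level was 1332 in tooth and 283 in skin. Which cells carried the 5 factors in either sample was not measured.

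Isl1, Nkx2-3, Satb1 and Bcl11b are also known from cells other than dental epithelium, and the markers of those cells did not all run one way. Of 10 neuron markers, 6 were detected, with a median of -0.55. Higher in tooth were the neuronal tubulin Tubb3 (-3.17), the neurofilament gene Nefl (at least 2.57-fold, but -0.90 with normexp correction) and Stmn2 (-1.16). Higher in skin were the sensory factor Pou4f1 (1.81) and, below 2-fold, Elavl4 (0.99), while Snap25 differed by 0.05. Those dim (not well above background) on both arrays included Elavl3, Nefm and Prph. The summed level of the 6 was 52.5 in tooth and 34.9 in skin, or 23.9 and 5.19 without the synaptic gene Snap25, and its part in the Isl1 difference was not tested. Of 7 Merkel cell markers, the keratin Krt20 (at least 16.1-fold), the factor Insm1 (at least 15.5-fold) and the defining factor Atoh1 (at least 8.62-fold) were higher in skin and not well above background in tooth. Krt18 (-2.73) and the mechanosensitive channel gene Piezo2 (-1.99) were higher in tooth, and the summed level of the 7 was 56.9 in tooth and 56.1 in skin, or 16.04 and 6.13 without the vesicle gene Rab3c. The Isl1 probe was not well above background on the skin array, and the part of Merkel cells in the Isl1 difference was not tested.

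Bcl11b and Satb1, both known from T cells, ran in opposite directions between the tissues. Of 12 T cell markers, 8 were detected, 0 were at least 2-fold higher in tooth and 2 were in skin, the surface gene Cd5 (2.05) and the receptor subunit Cd3d (at least 3.44-fold). Lck, the T cell kinase, differed by 0.95 and Cd3e by 0.84, both higher in skin. On the side of tooth, below 2-fold, were Lat (-0.51), Cd28 (-0.41) and Cd247 (-0.25, dim in skin), the last 2 of which changed side with normexp correction. Cd3g, Cd2, Rag1 and Il2rb were dim on both arrays. The median of the 8 was 0.54, which became -0.09 with spike-in scaling, and the summed level of the 8 was 7.34 in tooth and 13.8 in skin, or 1.86 and 4.04 without Cd3e. Its part in the Bcl11b difference was not tested. Satb1 was higher in tooth and the summed T cell level higher in skin. The part of T cells in the Satb1 difference was not tested.

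Of 8 endothelium markers, 5 were at least 2-fold higher in tooth and 0 in skin, with a median of -1.66, and Nkx2-3 ran the same way. Emcn (-3.10), Cdh5 (-2.70) and Tie1 (-2.22) had the largest differences, while Pecam1 (0.50) and the brighter Kdr probe (0.43) were on the side of skin and changed side with spike-in scaling. A second Kdr probe, well above background on both arrays, gave -2.19, so the direction of Kdr was not settled. The summed level was 35.8 in tooth and 39.9 in skin with that brighter Kdr probe, and 8.35 and 2.97 without Kdr. Madcam1, a vascular adhesion gene known to need Nkx2-3 in gut and spleen and named here for that reason, differed by -0.93. The part of endothelium in the Nkx2-3 difference was not tested.

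**Figure D4:**
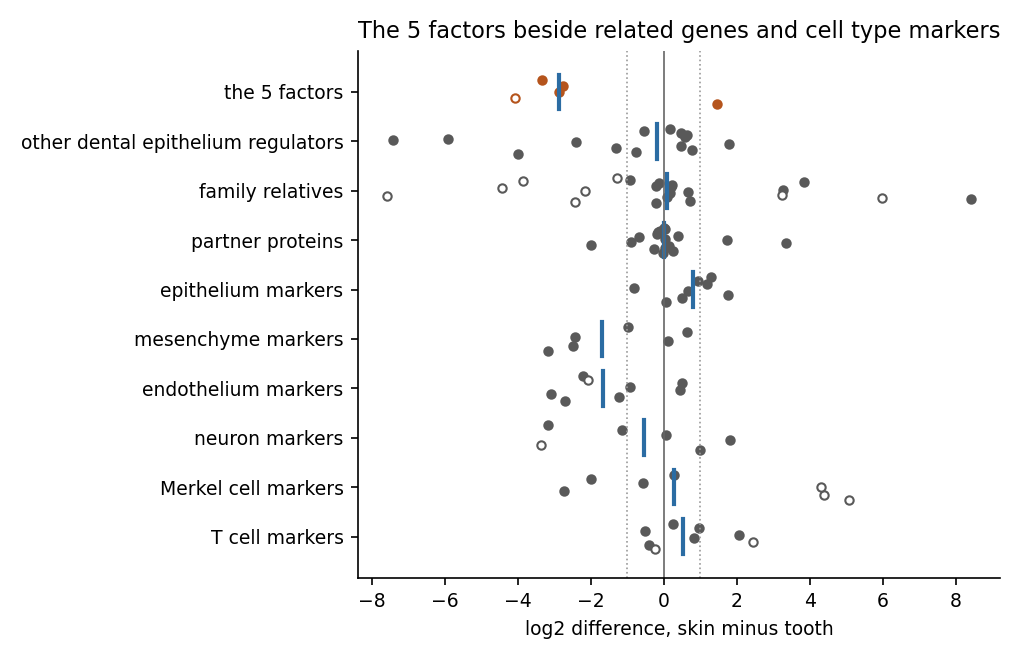
Difference in log2 signal, skin minus tooth (x axis), of the 5 factors (orange) and of the genes of each list detected on at least 1 array (grey), 1 row per list, with the list median as a blue bar, open points where 1 array was not well above background, and dotted lines at 2-fold. The median of the 5 factors was -2.87, that of the mesenchyme markers -1.71 and that of the epithelium markers 0.80.

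Other regulators of dental epithelium were mixed. Of 14 listed, all detected, 5 were at least 2-fold higher in tooth and 1 in skin, with a median of -0.19. The paired-like homeobox gene Pitx1 (-7.42) and the distal-less gene Dlx2 (4.27 in tooth and 0.27 in skin) had larger differences than Sp6, Nkx2-3 and Satb1. Lef1, a mediator of Wnt signals that teeth and hair follicles share, was higher in skin (1.79), in the direction of Bcl11b. Foxi3 (0.76) and Sox2 (0.64) lay on the same side below 2-fold. A difference toward tooth was therefore not a property of every listed regulator, and 8 of the 14 were within 2-fold.

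Relatives of the 5 genes in their own protein families ran both ways. Of 27 relatives, 21 were detected, 6 were at least 2-fold higher in tooth (3 when dim values were set to their bound) and 5 in skin. Bcl11a, the closest relative of Bcl11b, differed by -0.21 where Bcl11b differed by 1.46. Isl2 was at least 1.39-fold higher in tooth, where its scaled value was -3.25 and well above background. With normexp correction the measured difference of Isl2 was -0.03. Nkx2-5, the cardiac member of the family of Nkx2-3, was dim on both arrays.

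In the Sp family, Sp7, the osteoblast and odontoblast factor also called osterix, was at least 14.6-fold higher in tooth, like Sp6, whereas Sp5, a Wnt target, was higher in skin (3.83). The LIM-homeobox genes closest in type to Isl1 held the widest span. Lhx8, known from dental mesenchyme, had a value at least 49.6-fold higher in tooth. Lhx2, a factor of hair follicle stem cells, was higher in skin by 8.41, and Lhx3 was at least 15.5-fold higher there. Nkx3-2 (3.26) was the NK relative with the largest difference, toward skin. The median of the 21 was 0.09, and it turned to -0.53 with spike-in scaling and -0.16 with a shift to the array median.

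Partner proteins of the factors differed little. Of 18 genes for LIM-domain cofactors and for subunits of the NuRD histone deacetylase complex, which binds Bcl11b and Satb1, 17 were detected and 14 were within 2-fold, with a median of -0.00 (-0.62 with spike-in scaling). The LIM-binding adaptor Ldb2 was higher in tooth (3.99-fold), and the LIM-only genes Lmo1 (3.34) and Lmo4 (1.72) were higher in skin. Lmo2 differed by -0.91. Of the NuRD subunits, Mta1 (-0.67) and Mta2 (0.39) had the largest differences in each direction, and all were within 2-fold.

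Neighbouring genes were examined to see whether the differences extended along the chromosome. No other named probe lay within 100 kb of the Isl1 or Bcl11b probes in mm9. Near Sp6, the probes well above background on both arrays lay between -0.91 (Osbpl7) and 0.82 (Lrrc46), and its relative Sp2, on the other side of it, was -0.21. The nearest to Sp6, Scrn2, at 9.96 kb, was 0.42. Near Nkx2-3, Slc25a28 (48.7 kb) was 0.79 and BC037704 (61.9 kb) was 1.25, opposite to the -2.87 of Nkx2-3. Of the measured neighbours of Sp6 and Nkx2-3, none was at least 2-fold higher in tooth. Near Satb1, the clone C230085N15Rik (17.5 kb) was 1.84 in tooth and -0.49 in skin, a value of -2.33 in the direction of Satb1, and Gm6934 (94.8 kb) was -0.56.

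**Figure D5:**
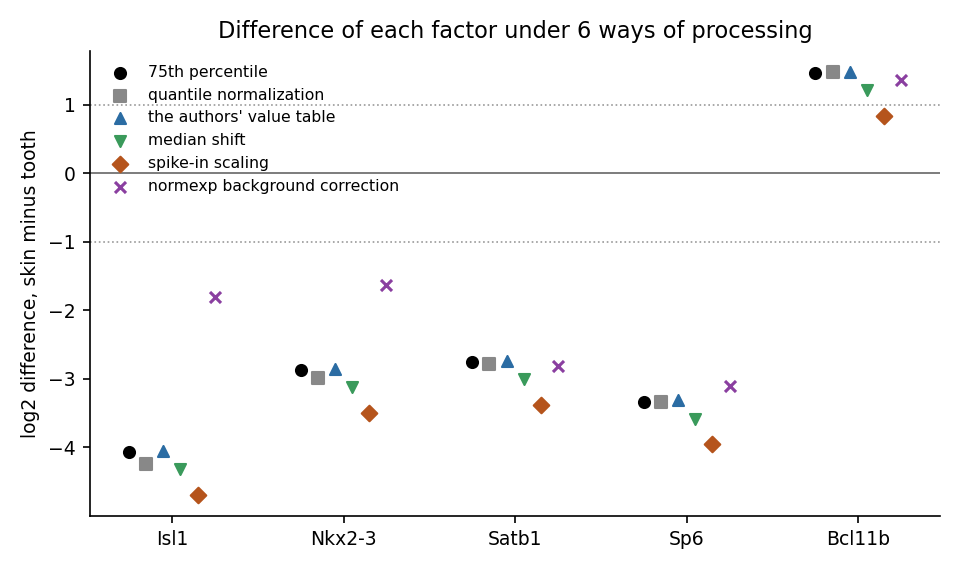
Difference in log2 signal, skin minus tooth (y axis), of each of the 5 factors (x axis) under 6 ways of processing, 1 symbol each, with dotted lines at 2-fold. No factor changed direction, Isl1 and Nkx2-3 moved most with normexp correction (-1.80 and -1.63), and Bcl11b fell below 2-fold with spike-in scaling (0.84).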

How the data were processed

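Per the file headers, the deposited spot intensities came from Agilent Feature Extraction 10.7.3.1, which had subtracted background, corrected for trends across the array and put surrogates in place of very dim values (22.8% of non-control spots in tooth, 25.5% in skin). The authors' value table held the ratio of processed signal to 1 factor per array (430.7 and 274.5), near the 75th percentile over all spots. The study's methods name GeneSpring, a filter on low signal and a percentile shift. The arrays shared a slide.

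Outlier spots (137 and 146) were dropped, spots were averaged per probe on the log2 scale, and the 75th percentile over non-control probes was subtracted. A probe was detected when over 50% of its spots were well above background. The brightest probe stood for a gene. Median SDs between spots of 1 probe were 0.08 (288 probes, tooth) and 0.09 (273, skin), which gives a difference an SD of 0.12. The number of arrays limits the precision. No non-control spot was saturated, and 0 of 297 (tooth) and 0 of 296 (skin) negative-control spots were well above background.

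Differences were skin minus tooth, and a bound replaced the fold where 1 array was dim. Bounds hold for the background handling of the deposited intensities only. With normexp correction, measured log2 differences were smaller than some bounds, as for Amelx (-12.57), Ambn (-11.73), Sp7 (-2.17), Lhx8 (-3.66), Krt20 (2.12) and Atoh1 (1.85). Named were all 5 factors, the closest relatives, and per list the 3 largest differences in each direction and the 2 largest bounds; other names were chosen after their values were seen, and some genes that the rule names are not reported here. The factors and lists were chosen with earlier results of these data known. Array accessions matched RefSeq (GRCm38.p6) for 27234 of 33182 named probes; 4 of 5 factors had promoter windows (8 in all). Probe coordinates were mm9, and which exon or UTR a probe lies in was not analysed here. Alternatives were spike-in scaling, a median shift, quantile normalization and normexp in limma 3.58.1 (R 4.3.3), the mean of probes, the authors' table, no filter and dim values at their bound. Calculations used Python 3.11.15, pandas 2.3.3 and numpy 2.4.6 and were tested on simulated data.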

Additional observations from a re-analysis of the deposited data

How the results depend on the processing

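Isl1, Nkx2-3, Satb1 and Sp6 were at least 2-fold higher in tooth and Bcl11b was higher in skin under every setting run, but sizes moved. Spike-in scaling gave -4.69 for Isl1, -3.96 for Sp6, -3.49 for Nkx2-3 and for the median of the 5, -3.38 for Satb1 and 0.84 for Bcl11b, so that 0 of the 5 passed 2-fold toward skin, and over all genes the counts past 2-fold became 5639 toward tooth and 1573 toward skin (from 2691 and 2466). This setting shifts all genes alike, and relative to the median gene no difference moved. A median shift gave -4.32 for Isl1, -3.58 for Sp6, -3.12 for the median, -3.004 for Satb1 and 1.22 for Bcl11b. Normexp gave -1.80 for Isl1 and the median, -1.63 for Nkx2-3 and -3.11 for Sp6, and 1672 genes at least 2-fold higher in tooth; the offset adds to dim values. Quantile normalization, the authors' table and the mean of probes moved no difference of the 5 factors, nor their median, by more than its error. They moved no count by over 1.5 times. Genes outside the 5 with several probes could move more with the mean of probes, such as Meis3 (from -2.57 to -1.19) and Kdr (from 0.43 to -0.88). No filter and dim values at their bound were run for the counts only and moved none by over 1.5 times, while the bound itself puts Isl1 at -3.41. No paired analysis was possible because each tissue had 1 array, and no replicate could be left out. Signal over background limits Isl1 in skin to a bound.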

Other observations

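The probe for the cDNA clone C230085N15Rik, near Satb1, was singled out after its value was seen. It lay on chromosome 17 (mm9, start 51896622) on the same strand as the Satb1 probe, and its name is absent from the RefSeq table used. Its difference was -2.33, beside -2.76 for Satb1. The Satb1 gene spans 97.1 kb in RefSeq (GRCm38.p6), a different build, so whether the clone lies within it was not tested.

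Of the 5 factors, Bcl11b was the 1 with 2 probes, and they differed from each other by less than the error of either (1.46 ± 0.20 and 1.57 ± 0.20). The other 4 factors each rested on 1 probe sequence.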
